A study of Mus musculus with 14 samples.

Results

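The windows described here are the 2000 accessible sites whose ATAC-seq signal differed most between individual R26WT control mice treated for the same number of days. They were chosen by that spread. Among 240778 windows, 64494 had a mean count of 50 or more over the 7 R26WT libraries. In these, CPM (counts scaled to the library's total in windows) plus 0.5 were put on the log2 scale, and the mean of the R26WT mice of the same day was subtracted. The 2000 windows with the highest standard deviation (SD) of these differences were kept, which is 3.10% of the 64494 windows and 0.831% of the series. The spread among R26WT mice is therefore a description with no test, and what stands beside it rests on position, on sequence, or on the R26TIR1(F74G) mice, which took no part in the choice. Comparisons of genotypes or days use both.

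Treg cells are CD4 T cells that restrain immune responses and depend on the transcription factor Foxp3 for their development. All mice carried the Foxp3-AID allele, which fuses Foxp3 to an auxin-inducible degron, and all received 5-ph-IAA, so the ligand and the allele are shared by both groups. The Foxp3-AID ROSA26-TIR1(F74G) mice also carry the plant receptor that marks the fusion protein for degradation in the presence of the ligand, and the Foxp3-AID ROSA26-WT mice do not. Treg cells came from spleen and lymph nodes of 4 mice of each genotype on day 3 and of 3 mice of each genotype on day 7. In this model Cre is made from the Foxp3 locus itself and removes the stop cassette in front of the receptor, so the receptor is limited to cells that express the allele. By the study's methods, the Foxp3-AID allele was made in hybrid ES cells of mixed strain origin, and littermates were used as controls whenever possible. The methods describe heterozygous females for experiments of this kind, in which Treg cells that use the unmodified Foxp3 allele remain in the host. The labels give neither the age nor the sex nor the litter of a mouse, and no activation state of the cells. The paper, in contrast, describes ATAC-seq of sorted resting and activated Treg cells on day 7. Which state the cells of these libraries were in was not established.

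In ATAC-seq, a transposase cuts and tags DNA that is not packed tightly in nucleosomes, so the number of reads at a site follows how open it is in the cells sampled. Promoters of active genes are usually open in every cell of a type, whereas enhancers and sites that respond to stimulation are open in some cells and states. Counts also follow the DNA itself, because a stretch that is missing, duplicated or strongly divergent in one animal gives fewer or more reads that match the reference genome.

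Libraries held 5653289 to 20184487 counts in windows, and between 47.3% and 51.9% of these lay within 1 kb of a protein-coding start site. The least deeply sequenced were R26WT day 7 replicate 3 with 6348754 counts and R26TIR1(F74G) day 3 replicate 1 with 5653289 counts. The library names of R26WT day 3 replicate 1 and R26TIR1(F74G) day 3 replicate 2 end in the numbers 20 and 21, and those of the other 12 libraries in numbers between 113 and 125. What these numbers stand for was not established. All 10 T cell markers had a window at a start site, with a summed level of 135 to 159 CPM in R26WT mice and 120 to 142 CPM in R26TIR1(F74G) mice. Of 10 B cell markers 4 had one, with 8.56 to 16.9 CPM in all, and the defining genes Cd79a, Ms4a1 and Pax5 had none. That sum was highest in the least deeply sequenced libraries, R26WT day 7 replicate 3 (16.9 CPM) and R26TIR1(F74G) day 3 replicate 1 (16.1 CPM). R26WT day 7 replicates 1 and 2 had 9.60 and 15.6 CPM. The other R26TIR1(F74G) mice of day 3 had 11.8, 14.9 and 12.7 CPM. The part of other cells in the spread between mice was not tested. Of 10 myeloid markers 5 had one, with 23.3 to 28.1 CPM, and Adgre1, Csf1r and Lyz2 had none. Of 10 CD8 T and NK cell markers 6 had one, with 28.6 to 34.1 CPM. Of 10 erythroid and platelet markers 2 had one, Klf1 and Tfrc, with 27.9 to 42.6 CPM, and Hba-a1, Hbb-bs and Gata1 had none.

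Promoters of 3 of the genes described below are shown first, because they carry windows in which single mice stood far from the rest of their group. Each runs from 250 bases before to 50 bases after the start site on the minus strand of its chromosome, read 5′ to 3′, from RefSeq (GRCm38.p6). Capitals mark 4 motifs on either strand, the GC box GGGCGG, the CCAAT box CCAAT, the ETS site CCGGAAG and the CRE TGACGTCA. The first, Timmdc1 (chr16:38522614-38522913), belongs to a factor needed to assemble mitochondrial complex I. The second, Trim30d (chr7:104507800-104508099), belongs to a cluster of TRIM genes, many of which act against viruses. The third, Cfap20dc (chr14:8666241-8666540), lies at a window with one of the highest spreads of the set.
Timmdc1: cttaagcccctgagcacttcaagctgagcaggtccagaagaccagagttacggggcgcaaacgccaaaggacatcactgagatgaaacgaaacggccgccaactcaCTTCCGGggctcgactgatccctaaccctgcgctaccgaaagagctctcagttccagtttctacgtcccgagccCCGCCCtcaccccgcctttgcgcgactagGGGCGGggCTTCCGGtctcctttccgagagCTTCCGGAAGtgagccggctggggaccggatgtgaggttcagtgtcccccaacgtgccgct
Trim30d: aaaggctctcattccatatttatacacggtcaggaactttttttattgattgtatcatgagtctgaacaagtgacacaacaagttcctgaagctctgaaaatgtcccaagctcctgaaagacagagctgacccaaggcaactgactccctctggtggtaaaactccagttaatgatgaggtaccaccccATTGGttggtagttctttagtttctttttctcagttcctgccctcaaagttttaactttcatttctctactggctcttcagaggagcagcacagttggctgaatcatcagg
Cfap20dc: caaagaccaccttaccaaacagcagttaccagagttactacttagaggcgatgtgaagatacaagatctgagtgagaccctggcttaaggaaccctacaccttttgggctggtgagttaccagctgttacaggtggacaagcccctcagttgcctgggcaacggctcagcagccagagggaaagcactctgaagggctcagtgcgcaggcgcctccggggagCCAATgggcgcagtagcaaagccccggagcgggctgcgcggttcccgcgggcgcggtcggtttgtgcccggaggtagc

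The promoters differ in composition. That of Timmdc1 is 61.3% G or C with 24 CpG pairs, 2 GC boxes and 4 ETS matches, of which a pair overlaps on opposite strands. That of Trim30d is 42.7% G or C with 1 CpG pair and 1 CCAAT box, and that of Cfap20dc is 59.7% G or C with 16 CpG pairs and 1 CCAAT box. Among the promoters of this length in the RefSeq table, 162 overlapped a window of the set, 10972 overlapped any window with a mean count of 50 or more, and 32851 were listed in all. An ETS match was present in 8.02% of the 162, in 20.4% of the 10972 and in 8.86% of all promoters. A GC box was present in 57.4%, 68.3% and 35.7%, a CCAAT box in 29.6%, 38.3% and 37.4%, and a CRE in 1.23%, 3.61% and 1.79% of the same sets. The median number of CpG pairs was 17 in the 162, 22 in the 10972 and 7 in all. These promoter sets were not matched for count, which was lower in the set, and the part of counts was not tested.

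The SD among R26WT mice ran from 0.329 to 1.04 over the 2000 windows, with a median of 0.365, and the median over all 64494 windows was 0.165. The last windows inside were near Tmem266 and Gmpr and the first outside near H1f10 and Arhgap23, all at 0.329. Counts were low, with a median mean count of 63.7 against 96.9 over the 64494 windows, and a spread on the log scale is larger at low counts. Relative to the variance that counting alone gives at each depth, the variance among R26WT mice had a median of 5.84 over the 2000 windows and 1.89 over the 64494 windows.

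In the 7 R26TIR1(F74G) mice, which were not used to choose them, the 2000 windows had a median SD of 0.223, and the 64494 windows had a median of 0.168. The SD lay above that median in 1483 windows, or 74.2%. Against counting error the difference was small, with a median ratio of 2.10 in the 2000 windows and 1.90 in the 64494 windows. A ratio of 2 or more was seen in 53.3% of the 2000 windows and in 47.2% of the 64494. When the 2000 most variable windows were picked in the same way in the R26TIR1(F74G) mice, 3.1% of all 64494 windows were in that group, and 291 windows of the set were, or 14.6%. Windows of like count gave 5.05%. Counted by region, since neighbouring windows overlap, 219 of 1666 separate regions, or 13.1%, held such a window. Outside the runs of windows on chromosomes 16, 7 and 4 described below the share was 12.7%, or 248 of 1950 windows. The windows that varied most among control mice thus varied more often among the other mice as well, while most of them did not stand out there.

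The recurrence was highest at high counts. Of the 789 windows with the lowest counts (50 to 60), 15.2% were among the most variable in R26TIR1(F74G) mice, against 7.08% of all windows of that count. Of the 213 windows with counts of 100 to 200, 10.8% were, against 1.40%. Of the 35 windows with counts of 200 or more, 65.7% were, against 0.529%. These 35 windows lie in 24 regions, 27 of them lie within 1 kb of a start site, and 16 belong to 1 gene cluster on chromosome 4 described below. That cluster held 15 of the 23 that recurred, and outside it 8 of 19, or 42.1%, did.

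**Figure D1:**
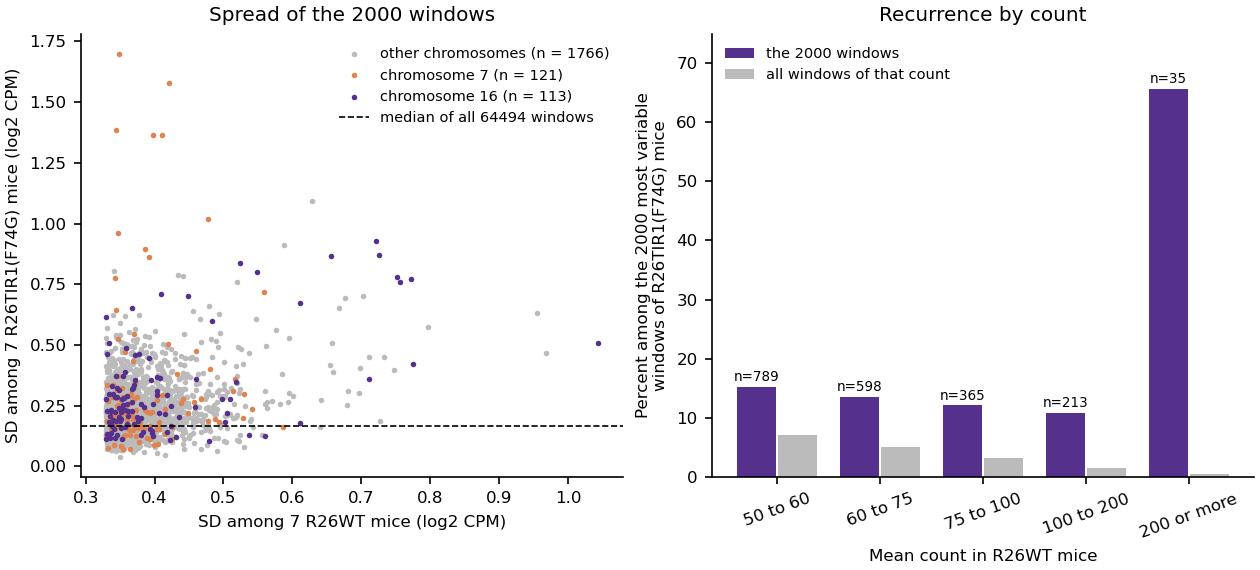
Left, SD of log2 CPM among the 7 R26WT mice (horizontal axis, used to choose the windows) and among the 7 R26TIR1(F74G) mice (vertical axis), 1 point per window, with the median of all windows of 0.168 dashed. Right, percent of windows that are also among the 2000 most variable in R26TIR1(F74G) mice by mean count, for the set (dark) and for all windows of that count (grey), which reach 65.7% and 0.529% at counts of 200 or more (42.1% of the set without the gene cluster on chromosome 4).

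Single libraries held much of the spread. R26WT day 7 replicate 3 lay farthest from the mean of its group in 931 windows, or 46.6%, and was low in 663 and high in 268 of them. R26WT day 3 replicate 1 lay farthest in 437 windows, or 21.9%, and the other 5 R26WT mice in 100 to 154 windows each. Depth moved with this, as replicate 3 of day 7 was the shallowest R26WT library. It accounted for 29.2% of the variance of the 2000 windows, and 26.8% was its part of the variance from counting alone. When the windows were chosen again without it, 943 of the 2000, or 47.2%, were kept. On principal components of the R26WT values, which the same selection shaped, the first held 44.8% of the variance and separated this mouse (loading 0.80) from replicates 1 and 2 of day 7 (loadings -0.48 and -0.32). The second held 23.6% and separated R26WT day 3 replicate 1 (loading 0.83).

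Among the R26TIR1(F74G) mice, day 3 replicate 1 lay farthest most often, in 628 windows or 31.4%, and it was also the shallowest. Day 3 replicate 2 came next with 367 windows or 18.4%, although it was among the deepest libraries with 18728202 counts. It held 23.9% of the variance of the 2000 windows and 9.88% of the counting variance. The number in the library name sets this library and R26WT day 3 replicate 1 apart from the others, and whether it plays a part was not tested. R26WT day 3 replicate 1, with 11221502 counts, held 17.0% of the variance of the 2000 windows among R26WT mice and 17.0% of the counting variance.

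**Figure D2:**
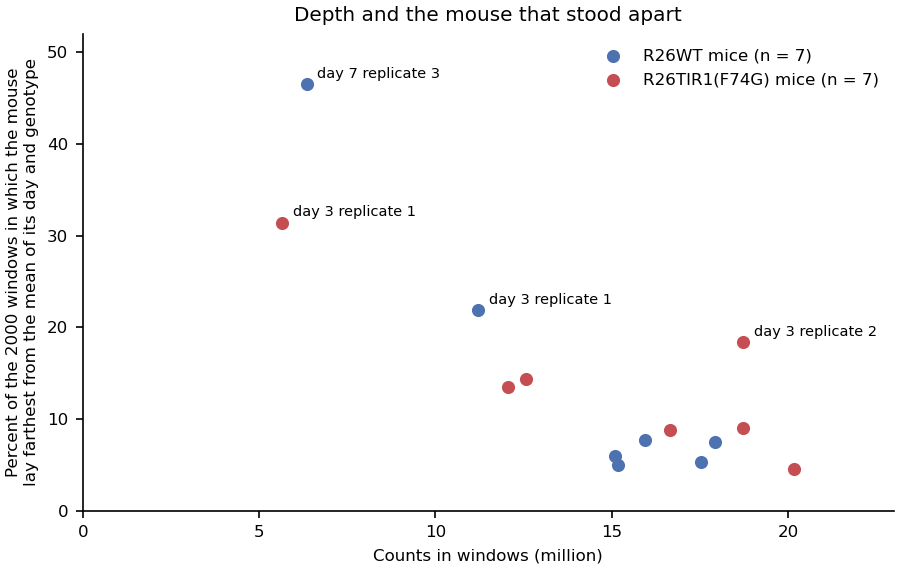
Depth of each library (horizontal axis, total counts in windows) and the percent of the 2000 windows in which that mouse lay farthest from the mean of its day and genotype (vertical axis), 1 point per mouse. The shallowest R26WT library reaches 46.6%, and R26TIR1(F74G) day 3 replicate 2 reaches 18.4% at 18728202 counts.

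The windows lay away from promoters more often than accessible windows in general. Of the 2000, 527 or 26.4% were within 1 kb of a start site, against 47.0% of the 64494 and 34.3% of windows of like count. Another 750, or 37.5%, lay inside a gene farther from its start (28.9% of all, 36.4% at like counts), and 723, or 36.2%, lay between genes (24.1% of all, 29.3% at like counts). They formed 1666 regions once windows within 1 kb were joined, of which 1412 held 1 window and the largest held 8. The nearest start sites belonged to 1448 genes.

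Neighbouring windows varied together in the R26TIR1(F74G) mice. Over the 7 libraries, pairs of windows under 1 kb apart, which overlap or share fragments, had a median Pearson r of 0.92. Pairs at 10 to 100 kb had a median of 0.39, pairs at 0.1 to 1 Mb had 0.04, and pairs on different chromosomes had a median of -0.00. An r above 0.9 was found in 55.0% of the closest pairs and in 1.11% of pairs on different chromosomes. These correlations share the same 7 libraries and their depths, and are given as a description.

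Chromosome 16 held the highest share, with 113 of its 2288 windows in the set, or 4.94%, where its counts alone would give 3.17%. The X chromosome followed with 4.08% and chromosome 15 with 3.92%, and chromosomes 19 and 11 were lowest with 2.0% and 2.12%. Of the windows on chromosome 16, 27.4% were among the most variable in R26TIR1(F74G) mice as well.

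The leading window on chromosome 16 by count lies over the start of Timmdc1 (chr16:38522579-38522780), in the promoter printed above, with a mean count of 539. In R26WT mice it reached 42.7, 46.1, 45.2 and 51.3 CPM on day 3 and 43.8, 7.70 and 25.4 CPM on day 7. In R26TIR1(F74G) mice it reached 43.5, 6.83, 43.8 and 39.6 CPM on day 3 and 28.8, 44.3 and 47.9 CPM on day 7. Thus R26WT day 7 replicate 2 and R26TIR1(F74G) day 3 replicate 2 were lowest and close to each other, R26WT day 7 replicate 3 and R26TIR1(F74G) day 7 replicate 1 lay between, and the other 10 mice were at or above 39.6 CPM in both genotypes.

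The same mice were low in other windows of chromosome 16. Of the 112 other windows there, 21 had an r above 0.9 with the Timmdc1 window over the R26TIR1(F74G) libraries, or 18.8%, against 29 of 1887, or 1.54%, on other chromosomes. They lay near 12 genes spread over 58.8 Mb, and 13 of them were more than 1 Mb from Timmdc1. In these windows with that of Timmdc1, the level of R26TIR1(F74G) day 3 replicate 2 was a median of 21.7% of the highest mouse, that of R26WT day 7 replicate 2 was 28.4%, that of R26WT day 7 replicate 3 was 49.4% and that of R26TIR1(F74G) day 7 replicate 1 was 55.8%. The other 10 mice had medians of 73.2% to 89.8%. R26TIR1(F74G) day 3 replicate 2 was the lowest of its group in all 22, which the choice by r in part fixed, and R26WT day 7 replicate 2 in 21 of 22. Without R26TIR1(F74G) day 3 replicate 2, 7 windows had an r above 0.9, and leaving out any one R26TIR1(F74G) mouse gave 7 to 25. That mouse was the farthest and low in 38 of 113 windows on chromosome 16, or 33.6%, and in 9.43% elsewhere. R26WT day 7 replicate 2 was the lowest control as well in 25 of 113, or 22.1%, against 1.01% elsewhere.

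Single windows showed the size of the difference. Inside Xxylt1 (chr16:31066845-31067046), a glycosyltransferase gene, R26WT mice had 15, 19.9, 16.2 and 20.9 CPM on day 3 and 17.1, 3.77 and 8.19 CPM on day 7. R26TIR1(F74G) mice had 18.0, 4.22, 14.5 and 14.9 CPM on day 3 and 10.2, 15.3 and 17.0 CPM on day 7. The lowest mouse of each genotype was the one that was lowest at Timmdc1.

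Inside Cd96 (chr16:46104572-46104773), a receptor of T and NK cells, R26WT mice had 6.51, 8.30, 6.70 and 6.97 CPM on day 3 and 7.78, 1.77 and 3.78 CPM on day 7. The R26TIR1(F74G) mice had 7.61, 1.33, 7.01 and 7.88 CPM on day 3 and 4.27, 7.99 and 8.13 CPM on day 7. Again the second R26WT mouse of day 7 and the second R26TIR1(F74G) mouse of day 3 were lowest.

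Inside Plcxd2 (chr16:46001196-46001397), the levels were 6.51, 6.06, 6.56 and 4.18 CPM in R26WT mice on day 3 and 7.28, 0.799 and 2.84 CPM on day 7. In R26TIR1(F74G) mice they were 5.66, 0.801, 4.94 and 5.23 CPM on day 3 and 4.22, 5.46 and 5.75 CPM on day 7. All 5 windows of Plcxd2 in the set were among the most variable in R26TIR1(F74G) mice. The 6 windows nearest in pattern to Timmdc1 were 3 of Plcxd2 and 1 each of Cd96, Xxylt1 and Tmem39a, with r of 0.985 to 0.993 over the 7 R26TIR1(F74G) libraries.

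The window with the highest spread of the whole set lay inside Lpp (chr16:24518860-24519061), which encodes a protein of cell adhesion sites, and had an SD of 1.04 among R26WT mice. It reached 6.95, 5.80, 6.37 and 5.52 CPM in R26WT mice on day 3 and 5.40, 0 and 1.89 CPM on day 7. The library at 0 could have held up to 0.171 CPM, the level of 3 counts at its depth. Among R26TIR1(F74G) mice the levels were 5.84, 2.56, 5.57 and 5.39 CPM on day 3 and 2.35, 5.28 and 5.85 CPM on day 7, so that day 3 replicate 2 and day 7 replicate 1 were low there too. Its nearest windows in pattern lay near B430306N03Rik, Egr2, Map2k5 and Cd47 (a pair of windows), with r of 0.951 to 0.979, and of these only those of Cd47 are on chromosome 16.

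**Figure D3:**
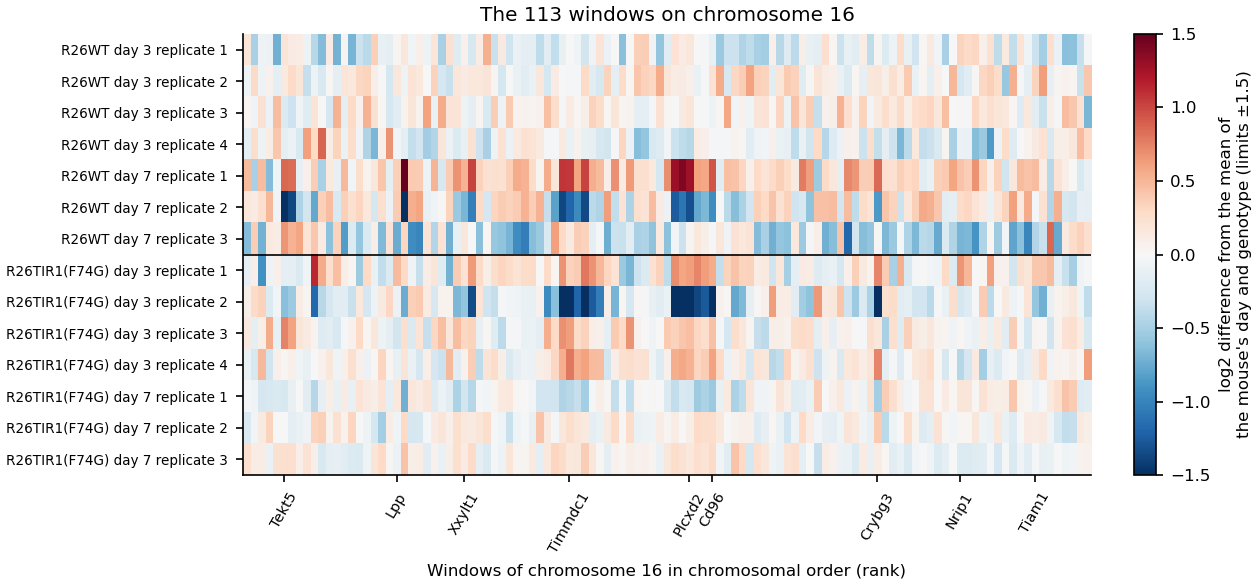
The 113 windows on chromosome 16 in chromosomal order by rank (columns) in each of the 14 mice (rows, R26WT above the line), coloured by the log2 difference of the mouse from the mean of its day and genotype, with colours limited at 1.5 either way. R26WT day 7 replicate 2 and R26TIR1(F74G) day 3 replicate 2 are low in runs that include Xxylt1, Timmdc1, Plcxd2 and Cd96, at medians of 28.4% and 21.7% of the highest mouse in the 22 windows that follow Timmdc1.

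On chromosome 7, 9 of 39 windows in a stretch of 2 Mb were in the set and 8 of them were also among the most variable in R26TIR1(F74G) mice. This stretch holds olfactory receptor genes and the cluster of Trim5, Trim12a and Trim30d. Of the 20 windows with the highest SD among R26TIR1(F74G) mice over all 64494, 19 lay there and 6 were in the set. R26TIR1(F74G) day 3 replicate 2 had no count in 6 of the 9 windows and was the lowest of its group in all 9.

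Upstream of Trim5 (chr7:104291946-104292147), R26WT mice had 11.8, 12.2, 16.1 and 15 CPM on day 3 and 7.34, 13.2 and 6.14 CPM on day 7. Levels in R26TIR1(F74G) mice were 15.2, 0, 15.2 and 9.62 CPM on day 3 and 7.69, 9.43 and 8.72 CPM on day 7. The library at 0 could have held up to 0.160 CPM. R26WT day 7 replicates 1 and 3 lay below the other control mice, and both were low at Trim12a as well.

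At Trim12a (chr7:104315144-104315345), R26WT mice had 13.5, 11.9, 12.4 and 12.0 CPM on day 3 and 6.02, 15.2 and 6.14 CPM on day 7, and R26TIR1(F74G) mice had 10.8, 0, 14.6 and 4.81 CPM on day 3 and 8.33, 7.14 and 7.04 CPM on day 7. At the Trim30d promoter printed above (window chr7:104507778-104507979), the second R26TIR1(F74G) mouse of day 3 kept 1.87 CPM, where the others of its group had 12.9, 16.2 and 8.79 CPM. R26WT mice had 12.5, 13.4, 13.9 and 16.6 CPM on day 3 and 9.10, 16.4 and 6.62 CPM on day 7. Members of this family are close copies, and counting could have split their reads, so the values of single TRIM genes are uncertain.

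**Figure D4:**
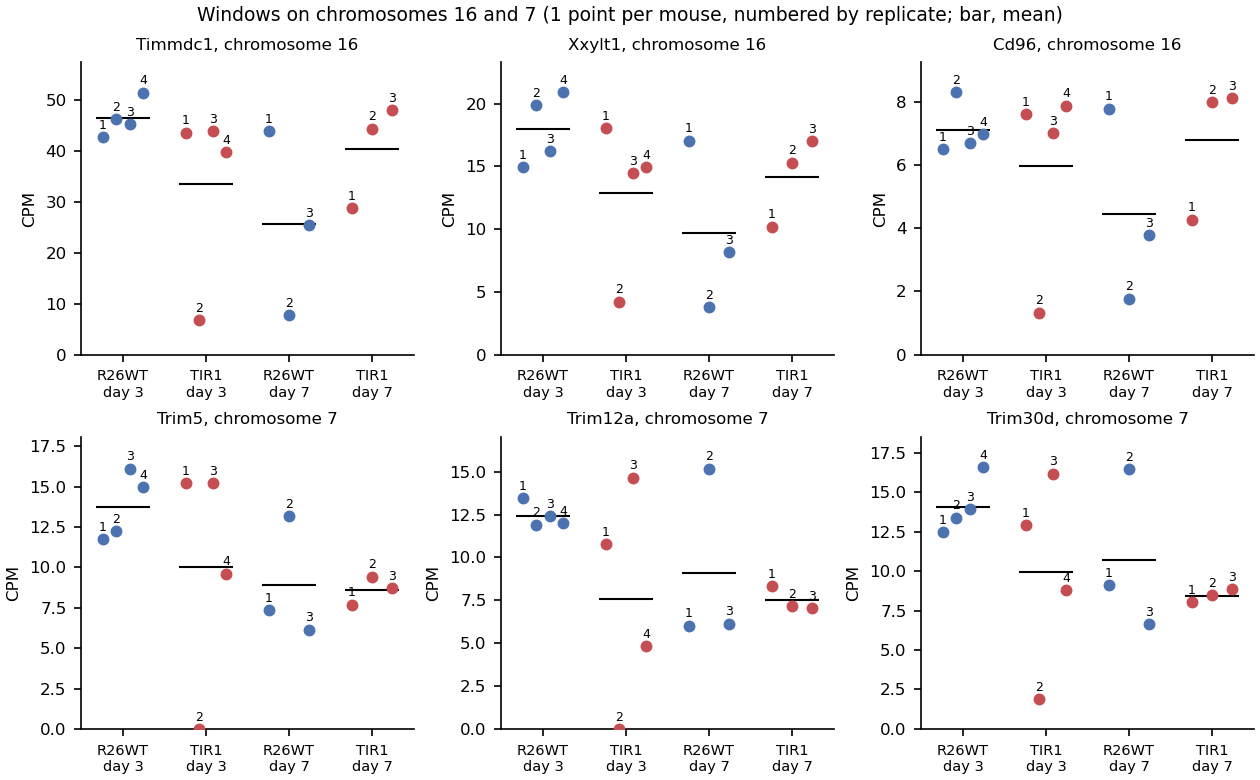
CPM in each mouse (vertical axes from 0, 1 point per mouse numbered by replicate, bars for group means) at windows of Timmdc1, Xxylt1 and Cd96 on chromosome 16 and of Trim5, Trim12a and Trim30d on chromosome 7. In the first row the second R26WT mouse of day 7 and the second R26TIR1(F74G) mouse of day 3 are lowest, and in the second row that R26TIR1(F74G) mouse is at 0, 0 and 1.87 CPM.

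On chromosome 4, 19 of 91 windows in a stretch of 0.6 Mb were in the set, or 20.9%, and 16 of them were among the most variable in R26TIR1(F74G) mice. This stretch was looked at after its values were seen. It holds the type I interferon genes Ifnz and Ifne and the interferon zeta family members Gm13275, Gm13276, Gm13277, Gm13287, Gm13288, Gm13289 and Gm13290, which lie next to each other as near-identical copies, so reads may have been split among them. The window just upstream of Gm13287 (chr4:88803071-88803272) had 28.6, 42.1, 45.9 and 31.9 CPM in R26WT mice on day 3 and 38.1, 34.7 and 70.1 CPM on day 7. In R26TIR1(F74G) mice it had 94.3, 37.3, 34.6 and 42.3 CPM on day 3 and 29.7, 33.2 and 32.5 CPM on day 7. Here single mice were high rather than low, and they were the shallowest library of each genotype.

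Over the 19 windows of this stretch, R26TIR1(F74G) day 3 replicate 1 was the highest of its group in 18 and R26WT day 7 replicate 3 was the highest of its group in 18. The median level of the R26WT mouse was 68.1% of the highest mouse, and the other 12 mice had medians of 33.3% to 51.4%. The part of depth in this was not tested.

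The antigen receptor loci encode the T cell receptors (Tcra, Tcrd, Tcrb and Tcrg), whose segments are cut and joined in developing T cells, and the immunoglobulins (Igh, Igk and Igl), whose variable segments are joined in developing B cells. Together they held 24 of their 166 windows in the set, or 14.5%. The Tcra and Tcrd locus on chromosome 14 held 12 of 67, or 17.9%, where like counts would give 4.35%, and the Igh locus held 8 of 53, or 15.1% against 4.71%. Of the 24 windows, 1 was among the most variable in R26TIR1(F74G) mice. In all 12 windows of Tcra and Tcrd, R26WT day 7 replicate 3 was above the mean of its group (median log2 difference 0.59) and R26WT day 7 replicate 1 below it (median -0.50). R26WT day 3 replicate 1 was below in all 12 as well (median -0.34). These are the values by which the windows were chosen, and differences within a group cancel, so a high mouse in part fixes a low one. R26WT day 7 replicate 3 was also the shallowest R26WT library and lay farthest in 46.6% of the whole set. None of these 12 windows was among the most variable in R26TIR1(F74G) mice. One of them (chr14:53654752-53654953, with Dad1 as the nearest protein-coding start in the annotation used) had 2.95, 4.51 and 8.19 CPM in R26WT mice on day 7 and 4.11, 3.24 and 3.72 CPM in R26TIR1(F74G) mice. R26WT mice on day 3 had 3.74, 2.96, 4.97 and 4.24 CPM there, and the R26TIR1(F74G) mice of day 3 had 4.07, 4.0, 3.34 and 2.99 CPM. Variable segments are a family of similar copies, and their counts are uncertain for that reason.

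Genes whose roles are known to change with the state of a T cell were present in small numbers, by lists chosen with earlier results of these data known. The list of activated Treg genes held 18 of 278 windows, or 6.47%, against 3.77% at like counts, near 11 genes that include Id2, Gata3, Tigit, Cd44 and Ccr4. The list of Treg identity genes held 3 of 196, or 1.53% against 3.91%, near Ikzf2, Il2ra and Nrp1. Genes of resting Treg and naive T cells held 11 of 394, or 2.79% against 3.54%, among them Bach2 (5 windows), Satb1 (3) and Il7r (2). The highest of these 3 lists were near Id2, Ikzf2 and Satb1, with SDs among R26TIR1(F74G) mice of 0.447, 0.274 and 0.285.

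Near Tigit (chr16:43708510-43708711), an inhibitory receptor of activated Treg cells, R26WT mice had 8.29, 8.63, 5.70 and 3.91 CPM on day 3 and 6.27, 6.33 and 3.62 CPM on day 7. R26TIR1(F74G) mice had 4.60, 5.93, 6.13 and 6.88 CPM on day 3 and 6.62, 6.0 and 6.74 CPM on day 7. The R26WT range enclosed the R26TIR1(F74G) range, and the SD among the latter was 0.166, near that of windows in general.

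Genes that respond quickly to stress or handling were a small part. The heat shock list held 5 of 85 windows, or 5.88% against 2.43% at like counts, 3 of Hspa1b and 2 of Hsp90aa1, both chaperones. Early response genes held 8 of 382, or 2.09% against 2.38%, NF-kB genes 7 of 157, or 4.46% against 3.08%, and glucocorticoid response genes 7 of 170, or 4.12% against 3.02%. Interferon response genes held 2 of 72 (2.78% against 3.12%), cell cycle genes 2 of 65 (3.08% against 2.61%), effector helper T cell genes 1 of 63 (1.59% against 3.56%) and circadian clock genes 1 of 128 (0.781% against 2.89%). None of the windows of the T cell markers, the cell type list with the most windows, and none of 12 of the erythroid and platelet markers were in the set. B cell markers held 1 of 11 windows (9.09% against 4.57%), near Ebf1, and myeloid markers 2 of 33 (6.06% against 4.18%), near Cebpb. CD8 T and NK cell markers held 1 of 30 (3.33% against 2.44%), near Cd8b1.

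At Hsp90aa1 (chr12:110690720-110690921), R26WT mice had 4.01, 3.95, 5.04 and 5.30 CPM on day 3 and 3.26, 2.91 and 0.945 CPM on day 7. Among R26TIR1(F74G) mice the levels were 6.01, 7.48, 2.63 and 4.40 CPM on day 3 and 3.36, 3.24 and 4.81 CPM on day 7. R26WT day 7 replicate 3 was the lowest mouse, and R26TIR1(F74G) mice of day 3 ran over a wide range. Within Fkbp5 (chr17:28485642-28485843), a glucocorticoid-induced regulator of its receptor, R26WT day 7 replicate 3 was high at 10.1 CPM and the other 6 R26WT mice had 4.15 to 6.15 CPM, and R26TIR1(F74G) mice ran from 3.36 to 6.22 CPM with a median of 4.91. At the start of Tnf (chr17:35201573-35201774), an inflammatory cytokine in none of the lists, the same mouse had 8.19 CPM where the other 6 had 2.45 to 4.21, and R26TIR1(F74G) mice ran from 2.65 to 4.89 CPM with a median of 3.52. R26WT day 7 replicate 3 is the shallowest R26WT library, and its values took part in the choice of these windows. What set it apart there was not tested.

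Of the genes with 3 or more windows, 113 in number, 76 had no window among the most variable in R26TIR1(F74G) mice, 20 had most of theirs and 10 had all. Nrip1, a corepressor of nuclear receptors, had the most with 11 windows, and 1 of them recurred. Foxp1, which keeps T cells quiescent, had 9 with none, and Otulinl had 9 with 8, all of them inside the neighbouring gene Trio. Hk3, a hexokinase of myeloid cells, had all 6 of its accessible windows in the set and 5 recurred, and Itga5, an integrin, had 5 of 6 with none.

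The windows of Bmf, which encodes a protein that promotes apoptosis, had the second-highest spread. Upstream of its start (chr2:118554758-118554959), R26WT mice had 12.1, 2.11, 22.5 and 6.08 CPM on day 3 and 25.1, 23.2 and 16.7 CPM on day 7. Levels in R26TIR1(F74G) mice were 13.3, 10.3, 21.7 and 26.1 CPM on day 3 and 19.5, 19.4 and 29.1 CPM on day 7. The 4 R26WT mice of day 3 differed from each other, R26WT replicate 2 being lowest of all, and all 4 windows of Bmf recurred.

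Inside Hectd4, with Trafd1 as the nearest start (chr5:121330374-121330575), R26WT mice had 12.4, 5.14, 8.16 and 5.86 CPM on day 3 and 15.2, 3.02 and 5.67 CPM on day 7. The R26TIR1(F74G) mice had 9.02, 9.56, 5.02 and 4.48 CPM on day 3 and 10.4, 5.46 and 7.18 CPM on day 7. At Hk3 (chr13:55018277-55018478), R26WT mice had 14.1, 11.7, 7.89 and 6.14 CPM on day 3 and 13.0, 7.59 and 4.73 CPM on day 7, and R26TIR1(F74G) mice had 9.20, 8.33, 8.28 and 5.14 CPM on day 3 and 11.2, 4.02 and 7.38 CPM on day 7. The ranges of all 4 groups overlapped in both windows.

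At Cfap20dc (chr14:8666136-8666337), whose promoter is printed above, R26WT day 3 replicate 1 had 0.891 CPM and the other R26WT mice had 4.28, 6.96 and 6.30 CPM on day 3 and 4.89, 5.14 and 6.30 CPM on day 7. R26TIR1(F74G) mice had 3.01, 6.73, 7.40 and 6.30 CPM on day 3 and 2.46, 7.32 and 6.14 CPM on day 7. There was thus 1 low mouse in each of 3 groups. Near Marveld2 (chr13:100594400-100594601), R26WT day 7 replicate 2 was low at 1.31 CPM and the other 6 R26WT mice had 5.46 to 8.82 CPM, whereas R26TIR1(F74G) mice ran from 4.50 to 6.99 CPM with a median of 6.30 and held no such mouse. Inside Tekt5 (chr16:10384041-10384242), the same R26WT mouse had 0.342 CPM where the other 6 had 3.31 to 5.35, and R26TIR1(F74G) mice ran from 1.76 to 5.33 CPM with a median of 3.07.

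Some windows that varied among R26WT mice hardly varied among R26TIR1(F74G) mice. The lowest SD there was 0.0409, near Rubcnl (chr14:75068487-75068688), where R26TIR1(F74G) mice ran from 5.89 to 7.63 CPM with a median of 6.19 and R26WT mice from 3.15 to 7.64 CPM with a median of 6.05. Rimbp2, Mier3, Plcg1 and Gsap followed, with SDs of 0.0464, 0.0551, 0.0584 and 0.0588. In all 5 windows R26WT day 7 replicate 3 was farthest from the rest, low in 4 and high at Rimbp2 with 8.03 CPM.

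Genotypes were compared over mice with edgeR's quasi-likelihood test, fitted on all windows with Benjamini-Hochberg adjustment at 0.05. The R26WT mice enter these tests, so a window chosen for their spread is not an unselected one. All 2000 windows passed the filter on low counts in each fit. On day 7, 0.00463% of 237811 windows were called, or 11 windows, and 4 of them were in the set, 3 higher and 1 lower in R26TIR1(F74G) mice. DESeq2 called none. On day 3, edgeR called 0% of 235515 windows and none of the set, of which 200 had an unadjusted p under 0.05 (the lowest adjusted p was 0.213 by edgeR), and DESeq2 called none. Over both days 0.0112% of 240778 windows were called and none of the set, of which 196 had an unadjusted p under 0.05. There DESeq2 called 155 windows, 1 of them in the set, but gave no adjusted p for 1769 of the 2000. Between days 0.00332% were called and none of the set, of which 146 had an unadjusted p under 0.05, and DESeq2 called none of the set. The share with an unadjusted p under 0.05 was 12.3% in the set and 5.96% in all windows on day 7, 10% and 7.55% on day 3, 9.8% and 6.73% over both days, and 7.3% and 5.47% between days. All windows here include lower counts than the set. At a minimum mean count of 50, day 7 had such p-values in 241 of 1969 in the set and 6846 of 72691 in all. On day 3 it was 198 of 1733 and 5152 of 62231. Over both days it was 159 of 1918 and 7196 of 66750, and between days 133 of 1918 and 4867 of 66750. At that minimum the set's share was above that of all windows on each day alone and below it over both days and between days.

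The window that was lower on day 7 lay upstream of Podxl (chr6:31804383-31804584), at -240546 bases from its start and between genes. R26WT mice had 2.95, 7.93 and 7.88 CPM and R26TIR1(F74G) mice had 0.854, 2.82 and 1.39 CPM on day 7, so the groups did not overlap and came close. The log2 fold change was -1.86 (SE 0.29, edgeR adjusted p = 0.0194, n = 3 and 3). On day 3, R26WT mice had 5.44, 5.14, 6.03 and 5.80 CPM and R26TIR1(F74G) mice 6.72, 4.43, 5.33 and 1.08 CPM, with 1 low mouse and a log2 fold change of -0.48 (SE 0.23, edgeR adjusted p = 0.638).

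The window inside Hspa1b (chr17:34958480-34958681), an inducible heat shock chaperone, had 4.02, 7.08 and 2.68 CPM in R26WT mice and 16.7, 6.96 and 11.2 CPM in R26TIR1(F74G) mice on day 7. The groups overlapped, and the log2 fold change was 1.23 (SE 0.22, edgeR adjusted p = 0.0491). On day 3 R26WT mice had 6.68, 4.28, 9.48 and 7.20 CPM and R26TIR1(F74G) mice 7.78, 12.4, 3.10 and 9.46 CPM, with an adjusted p of 0.856 by edgeR. All 3 windows of Hspa1b in the set were among the most variable in R26TIR1(F74G) mice, with SDs of 0.661, 0.784 and 0.803 there and of 0.479, 0.441 and 0.341 in R26WT mice. Hspa1b has a near-identical neighbour, Hspa1a, and reads may have been split between them.

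The remaining calls were overlapping windows near Unc5cl, the first 192689 bases from its start, between genes. In the first (chr17:48647490-48647691), R26WT mice had 2.95, 4.51 and 1.89 CPM and R26TIR1(F74G) mice 7.58, 7.08 and 7.18 CPM on day 7, which did not overlap, with a log2 fold change of 1.10 (SE 0.20, edgeR adjusted p = 0.0489). The second (chr17:48647553-48647754) had a log2 fold change of 1.13 (SE 0.20, edgeR adjusted p = 0.0491). On day 3 R26WT mice had 4.10, 6.39, 4.84 and 8.42 CPM in the first window and R26TIR1(F74G) mice 4.78, 6.03, 7.48 and 5.23 CPM, which overlapped. The number of calls on day 7 depended on single mice. Without R26WT replicate 1, 14 of the 27 windows called were in the set. It was 7 of 21 without R26WT replicate 2 and 2 of 9 without R26WT replicate 3. Leaving out R26TIR1(F74G) replicate 3 gave 0 calls in the set and 0 over all windows.

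**Figure D5:**
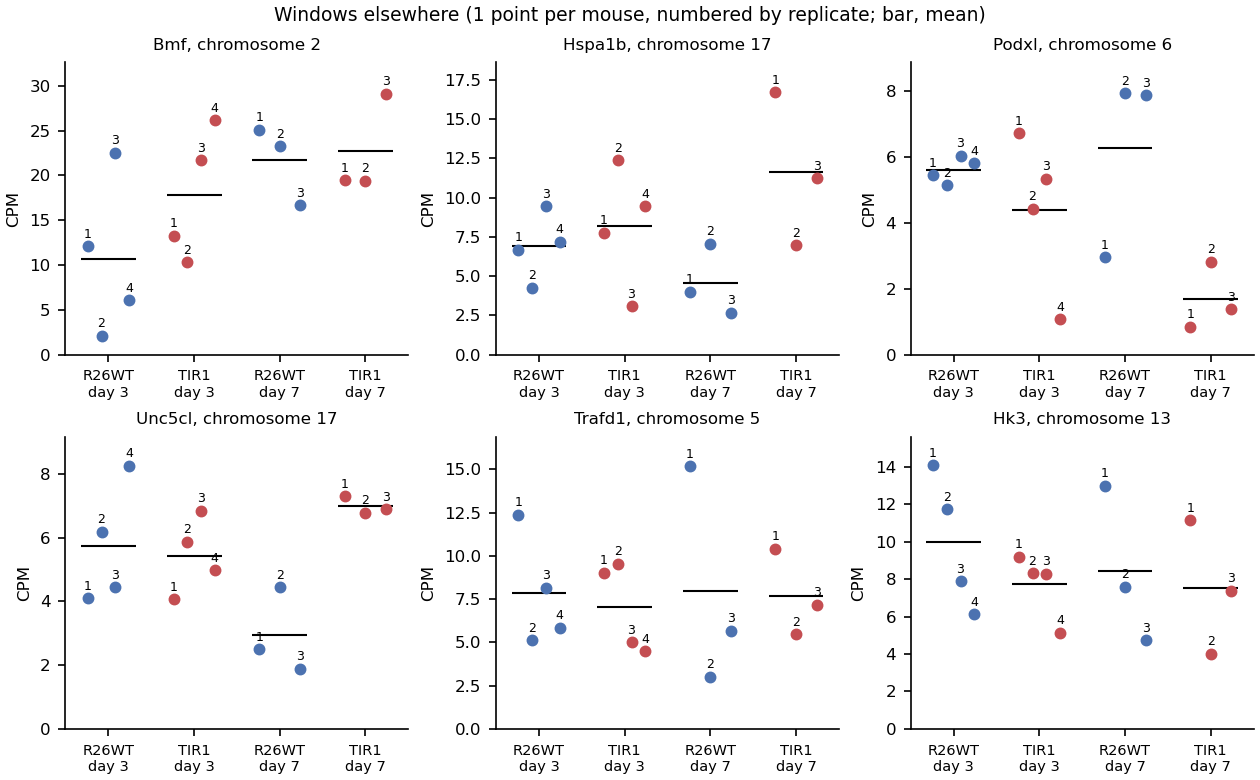
CPM in each mouse (vertical axes from 0, 1 point per mouse numbered by replicate, bars for group means) at windows of Bmf, Hspa1b, Podxl, Unc5cl, Trafd1 and Hk3. The day 7 groups do not overlap at Podxl and Unc5cl, overlap at Hspa1b, and the R26WT mice of day 3 run from 2.11 to 22.5 CPM at Bmf.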

How the data were processed

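ATAC-seq libraries of Treg cells from 14 mice were analyzed, 7 R26WT and 7 R26TIR1(F74G). Labels gave the group and replicate number. The mouse in a column name identified its sample for all 14 columns, and 0 columns stayed without one. Per the study's methods and the submitters' processing notes, the authors aligned reads with Bowtie2 to mm10, called peaks with MACS2, merged reproducible peaks and counted reads at their summits with featureCounts. What they deposited are raw counts, without normalization. Duplicate handling and the transposase offset are contained in them. Window coordinates are those of the deposited table (mm10, equal to GRCm38), and start and end differ by 201.

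The set was chosen by the rule given at the opening of the results, and it and all lists were chosen with earlier results of these data known. Windows were annotated by the nearest of 25212 start sites of protein-coding genes in RefSeq, GRCm38, within 1 Mb. Strand came from the promoter table for 17492 of 21900 genes and from GENCODE by symbol for 3949, and 459 genes had none. "Like counts" weights all windows by the 5 count classes of the set. Counting variance is the variance a Poisson count gives on the same scale. Limits for counts of 0 are 3 counts. Intervals and limits cover counting error only, since PCR reads without molecular identifiers are not independent molecules.

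Genotypes and days were tested with edgeR 4.0.16 (R 4.3.3; quasi-likelihood test, TMM, windows averaging 10 or more counts over the libraries of the comparison, Benjamini-Hochberg threshold 0.05). Both-day fits had day or genotype as a term. The SE beside a fold change is the absolute log2 fold change divided by the square root of the test's F statistic. It follows the spread between libraries and not counting error alone. DESeq2 1.42.0 was an alternative, beside other scalings, count filters, mice left out and replicate number as a block. Descriptions used Python 3.11.15. The fits and the spread were tested on simulated data. Nothing in the labels says that mice were handled apart, so p-values measure the spread between these libraries, which may be in part technical.

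Named windows are the 10 regions with the highest spread, the 10 genes with the most windows, up to 3 genes per list, called windows, the 5 highest and 5 lowest SDs among R26TIR1(F74G) mice, the 5 extreme loadings on each side of the first components, those at the threshold, and the nearest in pattern. Timmdc1, the TRIM windows beyond this rule, the interferon cluster, the antigen receptor loci and Itga5 were added after their values were seen. Some genes that this rule or the lists would name are not reported here.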

Additional observations from a re-analysis of the deposited data

Results flagged for a closer look

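In groups of 4 mice on day 3, the gap between the lowest or highest mouse and its neighbour was divided by the group's range. Values were on the scale of log2(CPM + 0.5). The larger ratio was above Dixon's 95% critical value for 4 values in 5 of 38 groups (19 windows). Chance marks about 1 in 20 groups that were not selected. That rate does not apply here, since the windows were chosen for their spread among R26WT mice, and some of them for their spread among R26TIR1(F74G) mice or after their values were seen. In each of the 5 it was R26TIR1(F74G) day 3 replicate 2 that was lowest. The ratio was 0.9 for the window inside Lpp (2.56 CPM in that mouse), 0.92 inside Plcxd2 (0.801 CPM), 0.945 at Timmdc1 (6.83 CPM) and 0.872 and 0.836 for the windows of Trim5 at chr7:104291946-104292147 and chr7:104287525-104287726, which had no count in it. With no count, the 0.5 added to the CPM sets the distance of that mouse, and on CPM itself, a scale added after seeing the data, the ratios of the Trim5 windows were 0.632 and 0.607, under the critical value, where those of the other 3 windows were 0.851 to 0.888, above it. The windows lie on 2 chromosomes, and windows near each other share fragments, so these are not 5 separate observations.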

How the results depend on the processing

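With DESeq2, 0 windows of the set and 0 in all were called on day 7. With no filter on counts 1 of the 4 calls was in the set, and with a minimum mean count of 50, 10 of 46. Over both days 1 window of the set was called with each of DESeq2 (155 calls in all), total counts (37) and that minimum (81). Deviations of mice of the same replicate number had an r of -0.08 to 0.07, which cannot tell whether such mice were handled together. With a replicate block, 12 of 52 calls on day 7 were in the set, 1 of 4 on day 3, 3 of 14 over both days and 1 of 12 between days. Leaving out single mice gave 0 to 14 calls in the set on day 7 and 0 to 2 on day 3. The latter were 2 of 30 calls in all without R26TIR1(F74G) replicate 1 and 2 of 13 without replicate 2. Over both days the set had 0 to 4. These were 4 of 56 without R26TIR1(F74G) day 3 replicate 1, 1 of 21 without R26TIR1(F74G) day 3 replicate 2 and 2 of 29 without R26WT day 3 replicate 3. Without R26WT day 7 replicates 1 and 3 they were 1 of 15 and 1 of 24. Between days the set had 0 to 1, with 1 of 7 without R26WT day 7 replicate 2 and 1 of 17 without replicate 3. The median SD among R26TIR1(F74G) mice was 0.170 with a count minimum of 100 and 0.289 with one of 20, and 0.215 to 0.227 without single R26WT mice. With a minimum of 20, 180 of the 2000 windows kept out of 144938 recurred. Out of 64494 windows, 136 of 1000 kept and 678 of 4000 kept recurred. Without single R26WT mice it was 250 to 284 of 2000. In each case as many windows were picked in the R26TIR1(F74G) mice as were kept, so the counts have different baselines. The share within 1 kb of a start site was 45.3% with a minimum of 100, 13.7% with 20, 23.4% with 1000 windows kept, 38.9% when the SD was taken relative to windows of like count, and 20.5% to 28.5% without single mice. The first component held 41.6% to 59.5% without single mice. Regions numbered 848 with 1000 windows kept and 3312 with 4000. The windows themselves changed, with 83.1% shared under TMM factors, 62.4% relative to like counts, 12.4% with a minimum of 100 and 7.15% with one of 20. The cause was not tested. Leaving out single R26TIR1(F74G) mice, chosen after seeing the data, gave a median SD of 0.187 to 0.230 and 240 to 295 recurring windows. At a mean count near 50, the shallow libraries give few reads per window, which limits what a single window shows.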
